A study of Mus musculus with 4 samples.

Results

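The genes described here are *Ubb*, *Rps27a*, *Uba1*, *Vcp*, *Nploc4*, *Zfand2a*, *Zfand5* and *Stub1*, which encode ubiquitin precursors, the ubiquitin-activating enzyme, the p97 ATPase and proteins that act beside them. They were chosen by symbol, through the RefSeq transcript accession of each array probe, and make up 8 of the 20144 genes that could be named on the arrays. They were represented by 13 probes, and each of these was well above background on all 4 arrays. RNA came from J774.1 (J774) cells, an established mouse monocyte-macrophage line. Cells received the proteasome inhibitors MG132, epoxomicin or ONX0914, the last directed at the β5 and β5i subunits, at 1 μM, or only the solvent DMSO, and were kept for 4 hours. Each condition had 1 array, so no difference has a replicate check and no p-value is given. All 3 comparisons share the same DMSO array. For one array the treatment label reads ONX-0912, but its title gives ONX, and the protocol and the Methods give ONX0914, so it is called ONX0914 here. The design is human by the Methods but mouse by the headers of the files, and mouse accessions were used.

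Ubiquitin is never made as a free protein. It is translated either as head-to-tail repeats, as from *Ubb*, or fused to a ribosomal protein, as from *Rps27a*, and is cut free afterwards. The E1 enzyme UBA1 activates ubiquitin, and E2 and E3 enzymes pass it to substrates. The p97 ATPase, product of *Vcp*, unfolds ubiquitylated proteins or pulls them out of membranes and complexes with cofactors such as the NPLOC4-UFD1 dimer, and hands many of them to the proteasome. ZFAND2A (also called AIRAP) and ZFAND5 are AN1-type zinc finger proteins that bind the proteasome, and STUB1 (CHIP) is the U-box E3 ligase that works with the Hsp70 and Hsp90 chaperones.

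A level is the processed signal of a spot, which is its brightness after background subtraction, and a difference is the log2 signal minus the 75th percentile of its array, with inhibitor minus DMSO. Where values follow each other without names, 4 signals are in the order DMSO, MG132, epoxomicin and ONX0914, and 3 differences or ranks in the order MG132, epoxomicin and ONX0914. That percentile was a signal between 1453.4 and 1682.9, between 60.3% and 63.1% of the spots were well above background, and no spot was saturated. A gene was called higher or lower when it differed by at least 2-fold, which is 1 on the log2 scale. For bright spots the error estimate of the scanner software was 10.00% of the signal, which gives a difference between arrays a standard error of 0.20. Spots of the 399 probes printed 10 times gave a smaller limit of 0.09, and neither value includes the spread between cultures. In RNA of whole cultures, fewer cells of a kind and less RNA per cell cannot be told apart. All 7 macrophage markers with a named probe (*Adgre1*, *Csf1r*, *Lyz2*, *Itgam*, *Spi1*, *Fcgr1* and *Cd14*) passed the background call of the software on all arrays, and their signals summed to 354500 on the DMSO array and 272800, 307700 and 333900 on the MG132, epoxomicin and ONX0914 arrays. None of the 4 B cell markers was above background. *Cd3e* and *Lck*, 2 of the 3 T cell markers with a probe, were well above background on every array, and the list summed to 2491 with DMSO and to between 3699 and 5083 with the inhibitors, while *Cd3d* was not above background on any. Endothelial markers (*Pecam1*, *Cdh5* and *Kdr*, 3 of 4) summed to between 5466 and 6627. The fibroblast list summed to between 102.6 and 146.4, with 2 of 4 genes (*Col1a2* and *Pdgfra*) well above background in DMSO and 1 with each inhibitor. The epithelial list summed to 21.28 with DMSO and to 64.48, 169.3 and 27.8 with the inhibitors, with none of its 4 genes well above background in DMSO and ONX0914, 1 in MG132 and 2 (*Krt8* and *Krt18*) in epoxomicin. All these sums are of signals not scaled between arrays, so they also carry the brightness of each array. The 75th percentile was 1654.2 with DMSO and 1453.4, 1682.9 and 1612.5 with MG132, epoxomicin and ONX0914. The part of these markers in the results below was not tested.

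Promoter windows were found for 7 of the 8 genes in a RefSeq table of GRCm38.p6, 10 windows in all, and none for *Rps27a*. A window runs from 250 bases before the transcript start to 50 bases after it. The upstream 250 bases are shown for the pair of genes that rose at least 2-fold with every inhibitor and for the p97 gene and its cofactor, which were higher by less. Lower case marks the sequence, 5′ to 3′ along the gene, and capitals mark the letters found by a search of both strands for the heat shock element pairs GAANNTTC and TTCNNGAA, the antioxidant response core TGACNNNGC and the amino acid response core TGATGNAA.
Zfand2a, chr5:139484492-139484741 (- strand): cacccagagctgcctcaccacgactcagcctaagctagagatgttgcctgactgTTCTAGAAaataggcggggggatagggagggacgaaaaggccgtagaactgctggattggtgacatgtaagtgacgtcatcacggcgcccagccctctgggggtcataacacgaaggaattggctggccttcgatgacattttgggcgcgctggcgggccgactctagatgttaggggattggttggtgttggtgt
Zfand5, chr19:21272028-21272277 (+ strand): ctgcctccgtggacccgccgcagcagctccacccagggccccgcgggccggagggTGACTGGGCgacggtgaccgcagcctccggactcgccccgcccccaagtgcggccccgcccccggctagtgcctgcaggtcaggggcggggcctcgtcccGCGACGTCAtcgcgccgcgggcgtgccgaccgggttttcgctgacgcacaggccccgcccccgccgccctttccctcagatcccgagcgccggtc
Nploc4, chr11:120437701-120437950 (- strand): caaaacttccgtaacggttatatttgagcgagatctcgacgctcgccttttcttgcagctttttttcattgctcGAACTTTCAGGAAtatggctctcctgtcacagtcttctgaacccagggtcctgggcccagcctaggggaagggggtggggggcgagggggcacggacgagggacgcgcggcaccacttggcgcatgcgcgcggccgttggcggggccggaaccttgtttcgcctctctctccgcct
Vcp, chr4:43000508-43000757 (- strand): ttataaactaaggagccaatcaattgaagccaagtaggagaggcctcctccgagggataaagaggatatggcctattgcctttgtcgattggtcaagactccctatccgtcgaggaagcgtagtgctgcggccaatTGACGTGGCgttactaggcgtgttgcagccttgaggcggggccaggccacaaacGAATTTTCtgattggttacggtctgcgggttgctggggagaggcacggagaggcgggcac
In *Zfand2a* the capitals are a TTCNNGAA pair from -196 to -189, counted from the transcript start. In *Zfand5* they are TGACNNNGC matches from -195 to -187 and, on the other strand, from -95 to -87. In *Nploc4* a GAANNTTC pair from -176 to -169 overlaps a TTCNNGAA pair from -171 to -164, which together read as a run of alternating heat shock units. In *Vcp* they are a TGACNNNGC match from -114 to -106 and a GAANNTTC pair from -60 to -53. Of the genes not shown, *Stub1* held a GAANNTTC pair from -123 to -116, and one of the *Ubb* windows held TGACNNNGC from -29 to -21 and TGATGNAA on the other strand. The other *Ubb* window and the *Uba1* windows held none of these letters. *Ubb*, which was also higher by less than 2-fold with every inhibitor, is not among the sequences shown. Such matches are frequent, since GAANNTTC is in 7.86% of the 32851 windows of the table, TTCNNGAA in 8.52%, TGACNNNGC in 12.39% and TGATGNAA in 3.97%. The overlapping arrangement of *Nploc4*, which was not among the planned motifs, is in 0.60% of them. A match describes letters and does not show that a factor binds there.

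Of the 8 genes, *Zfand2a* and *Zfand5* rose at least 2-fold, and both did so with every inhibitor. *Ubb*, *Nploc4* and *Vcp* were higher by less than 2-fold with each of the compounds, *Stub1* was lower with each by less than 2-fold, and *Rps27a* and *Uba1* stayed within 0.10 of the DMSO array on the log2 scale. The 2 higher genes of 8 stand beside a background of 7.25% of all 13772 genes compared for MG132, 8.41% of 13875 for epoxomicin and 3.27% of 13793 for ONX0914. No member of the 8 passed 2-fold in the lower direction, where the background was 3.66% for MG132, 4.50% for epoxomicin and 1.41% for ONX0914. The median difference over the 8 genes was 0.68, 0.53 and 0.65 for MG132, epoxomicin and ONX0914. Over all genes compared, the median was -0.02, -0.04 and -0.01 in the same order. The 8 genes are few and were chosen by name with earlier results of these data known, so these counts describe them and no test was made.

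**Figure D1:**
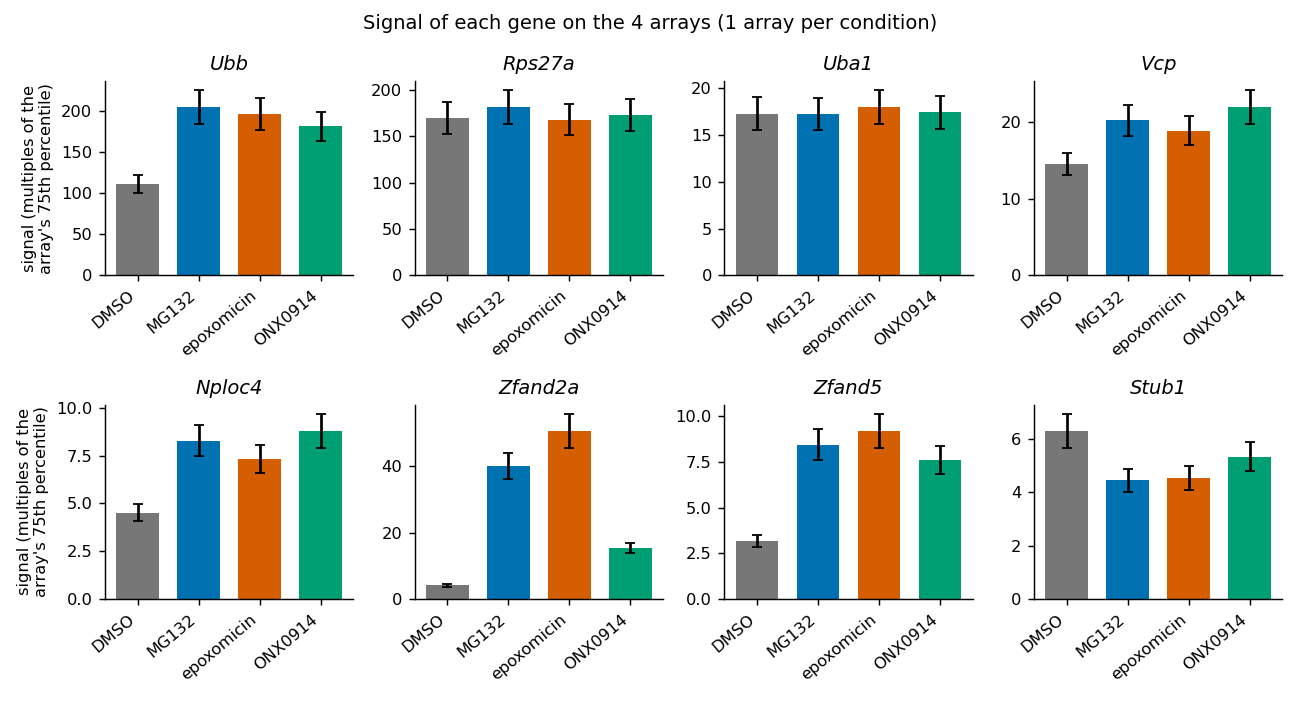
Signal of each gene on the 4 arrays, as a multiple of the 75th percentile of its array (bars, linear axes from 0, each gene with its own axis); error bars are the error estimate of the scanner software for 1 spot, not a spread between cultures. *Zfand2a* went from 4.18 with DMSO to 40.01, 50.66 and 15.4 with MG132, epoxomicin and ONX0914, whereas the *Uba1* bars lie between 17.22 and 17.96.

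The ubiquitin precursor genes *Ubb* and *Rps27a* differed from one another. The polyubiquitin gene *Ubb* (NM_011664) gave a reading of 183783 on the DMSO array and 297658, 330258 and 292370 on the MG132, epoxomicin and ONX0914 arrays. Every inhibitor array lay above the DMSO array, and the inhibitor arrays lay close to each other. After scaling, the difference was 0.88, 0.82 and 0.71 with MG132, epoxomicin and ONX0914, or 1.84-fold, 1.77-fold and 1.63-fold. The inhibitors were at most 0.18 apart for *Ubb*, which is inside the standard error of 0.20. A second *Ubb* probe, with 133370, 170159, 197874 and 186127 on the 4 arrays in the same order, gave smaller differences of 0.54, 0.54 and 0.52. Both probes placed *Ubb* above DMSO with each compound, and they disagreed on the size by up to 0.34. With normexp background correction on all spots the representative probe passed 2-fold with MG132, at 1.05, and reached 1.003 with epoxomicin, whereas normexp without outlier spots left it at 0.87 and 0.82.

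*Rps27a* (NM_001033865), which encodes ubiquitin fused to a protein of the small ribosomal subunit, gave a reading of 280264 on the DMSO array and 263468, 282591 and 278716 on the MG132, epoxomicin and ONX0914 arrays. The arrays did not separate, with differences of 0.10, -0.01 and 0.03. A second bright probe gave 149181, 139286, 157036 and 152139, with differences of 0.09, 0.05 and 0.07. A faint probe for the transcript NM_024277 read 52.44, 71.94, 80.03 and 48.23, or 0.64, 0.58 and -0.08. That probe departed from the bright probes with MG132 and epoxomicin and not with ONX0914. Since the sign of the *Rps27a* differences changed with the scaling, no direction is given for it.

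The repeat gene *Ubb* and the fusion gene *Rps27a* thus lay apart with every inhibitor, as far as the bright probes show. The ubiquitin units of these genes are very similar in sequence, probe sequences were not used here, and the capture of one precursor's RNA by the probe of another was not tested.

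*Uba1*, which encodes the E1 enzyme that activates most ubiquitin, was the least variable of the 8 genes. The probe for NM_001136085 read 28562.2 on the DMSO array and 25032.9, 30228.8 and 28069.4 on the MG132, epoxomicin and ONX0914 arrays, and a faint probe for NM_009457 read 170.5, 146.2, 183.4 and 176.1. No array stood apart once scaled. The bright probe gave differences of -0.00, 0.06 and 0.01, and the faint probe -0.03, 0.08 and 0.08, all inside the spot limit of 0.09, and their sign is not settled. The other activating enzymes were mostly near DMSO as well, and 1 of the 10 E1 genes was called higher with MG132 and with epoxomicin and none with ONX0914. A single gene of 10 is near the background of 7.25% and 8.41% of all genes. That gene was *Uba7*, the activating enzyme of the ubiquitin-like protein ISG15, which differed by 1.18, 1.51 and 0.73. *Uba2*, a subunit of the SUMO-activating enzyme, lay on the other side of DMSO at -0.42, -0.41 and -0.26.

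*Vcp* and *Nploc4*, the ATPase and a subunit of its substrate-recruiting dimer, were above DMSO on every inhibitor array. *Vcp* (NM_009503) read 23991.6 on the DMSO array and 29390.7, 31734.4 and 35322.9 on the MG132, epoxomicin and ONX0914 arrays. Its differences of 0.48, 0.38 and 0.59 correspond to 1.39-fold, 1.30-fold and 1.51-fold. *Nploc4* (NM_001195023) read 7488.04, 12043.9, 12295.5 and 14182.7. Its differences were 0.87, 0.69 and 0.96, or 1.83-fold, 1.61-fold and 1.94-fold, so that *Nploc4* with ONX0914 was the value just under the 2-fold threshold, and normexp on all spots took it past the threshold with MG132 (1.02) and with ONX0914. Normexp without outlier spots left *Nploc4* below it, at 0.89 with MG132 and 0.97 with ONX0914. Both genes had their largest difference with ONX0914 and their smallest with epoxomicin, in contrast to *Zfand2a* and *Zfand5*. Among the 12728 genes measured on all arrays, *Nploc4* ranked 316th from the highest difference with ONX0914 and 1528th with epoxomicin, and *Vcp* ranked 739th with ONX0914 and 2791st with epoxomicin. Between these inhibitors *Nploc4* was 0.27 and *Vcp* 0.22 apart, little more than the standard error of 0.20, and without scaling between arrays the order of the inhibitors changed for both genes.

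In the list of p97 and its cofactors, 32 of 34 genes were compared, with 3, 2 and 1 called higher in MG132, epoxomicin and ONX0914 and none called lower. The share was 9.38%, 6.25% and 3.12%, near the background of all genes, and the list medians were 0.17, 0.11 and 0.11. *Vcpip1*, a deubiquitinase that binds p97, went from 1728 to 3759, 4884 and 2822, a difference of 1.31, 1.47 and 0.74. *Ubxn4*, a p97 adaptor of the endoplasmic reticulum, differed by 1.04, 1.06 and 1.15, but from faint signals of 35.2, 63.46, 74.52 and 76.19, and it turned to -0.79, -0.94 and -0.998 with normexp background correction on all spots but stayed at 0.53, 0.38 and 0.32 with normexp fitted without outlier spots. *Rhbdd1*, a rhomboid protease that recruits p97, was faint as well, from 100.6 to 187, 203.8 and 157.3. Its differences of 1.08, 0.99 and 0.68 turned to -0.35, -0.40 and -0.75 with normexp on all spots. With normexp without outlier spots they were 0.58, 0.53 and 0.19. The partner of *Nploc4*, *Ufd1*, was 0.51, 0.50 and 0.48 above DMSO. *Nsfl1c*, which encodes the cofactor p47, was 0.63, 0.53 and 0.62 above, and *Plaa*, a ubiquitin-binding cofactor, 0.68, 0.60 and 0.54 above. *Ubxn7* was 0.70 and 0.77 above DMSO with MG132 and epoxomicin and 0.05 above with ONX0914. *Derl3* was lower with each compound, at -0.48, -0.45 and -0.19. Genes nearer DMSO or on both sides of it included *Derl1* at 0.07, -0.01 and 0.10, *Derl2* at -0.22, -0.29 and -0.01 and *Syvn1* at 0.03, -0.13 and 0.31.

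*Zfand2a* showed the largest differences of the 8 genes. Its probe (NM_133349) read 6913.51 on the DMSO array and 58155.8, 85260.8 and 24839.7 on the MG132, epoxomicin and ONX0914 arrays. All inhibitor arrays stood far above DMSO, with epoxomicin highest and ONX0914 lowest among them. The rise was 3.26, 3.60 and 1.88, or 9.57-fold, 12.1-fold and 3.69-fold, and *Zfand2a* ranked 49th, 47th and 78th from the highest of 12728 genes. It was 2.60-fold higher with MG132 and 3.29-fold higher with epoxomicin than with ONX0914. Epoxomicin and MG132 were 1.27-fold apart.

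**Figure D2:**
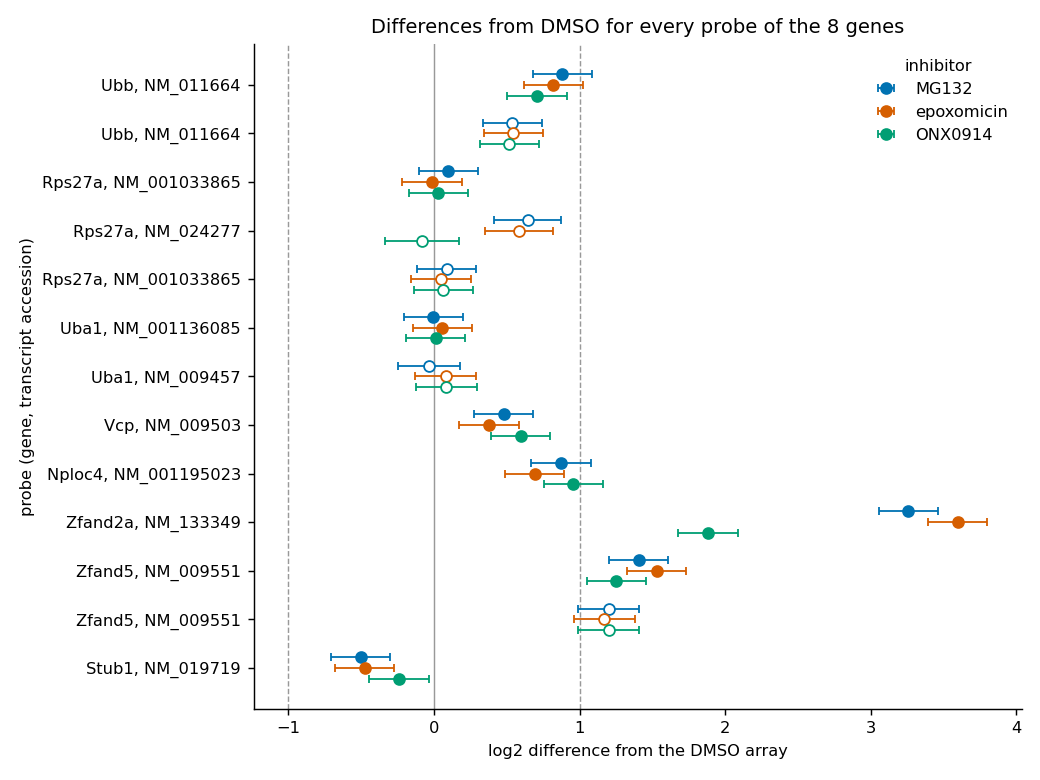
Log2 difference from the DMSO array for each of the 13 probes, 1 row per probe with its transcript accession (filled points, the probe that represents the gene; open points, its other probes); bars are the standard error from the scanner software and dashed lines mark 2-fold. Only the *Zfand2a* and *Zfand5* probes pass the right dashed line, and the inhibitors lie farthest apart in *Zfand2a*.

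*Zfand5* (NM_009551) read 5282.11 on the DMSO array and 12301.6, 15508.2 and 12276.9 on the MG132, epoxomicin and ONX0914 arrays. It rose by 1.41, 1.53 and 1.25, or 2.65-fold, 2.89-fold and 2.38-fold. The inhibitor arrays were more alike than in *Zfand2a*, with at most 0.28 between them. A second, faint *Zfand5* probe read 148.5, 299.7, 339.6 and 332.5 and gave 1.20, 1.17 and 1.20, so both probes were above 2-fold with each inhibitor. The remaining AN1 zinc finger genes did not pass the threshold. *Zfand2b*, the closest relative of *Zfand2a*, differed by 0.31, 0.10 and 0.02, *Zfand3* by 0.54, 0.44 and 0.29, *Zfand6*, the closest relative of *Zfand5*, by 0.17, 0.28 and 0.16, and *Zfand1*, which brings p97 and the proteasome to stress granules, by -0.20, -0.23 and -0.09. Thus 2 of the 6 family genes with a named probe were called higher with each inhibitor, both of them among the 8 genes chosen, and none was lower, where 7.25%, 8.41% and 3.27% of all genes were called higher.

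*Stub1* (NM_019719) was the one gene of the 8 below DMSO with every inhibitor. It read 10441.5 on the DMSO array and 6467.74, 7639.28 and 8613.71 on the MG132, epoxomicin and ONX0914 arrays. The differences were -0.50, -0.48 and -0.24, or 1.42-fold, 1.39-fold and 1.18-fold lower, and *Stub1* ranked 1991st, 2420th and 2492nd from the lowest. None of these passed 2-fold, and the value with ONX0914 was close to the standard error of 0.20 and was -0.08 with normexp on all spots and -0.23 with normexp without outlier spots. Of the 13 U-box ligases and BAG or Hsp70-binding co-chaperones, 1, 2 and 2 were called higher in the same order of compounds and none was lower, a share of 7.69%, 15.4% and 15.4% beside 7.25%, 8.41% and 3.27% of all genes. The share with MG132 is that of the background. *Bag3*, a co-chaperone of Hsp70 in selective autophagy, rose from 3064 to 12090, 23870 and 6778, a difference of 2.17, 2.94 and 1.18. *Dnajb1*, an Hsp40 of the heat shock response, rose with epoxomicin, with differences of 0.76, 1.66 and -0.05. *Dnajb2*, an Hsp40 with ubiquitin-binding motifs, differed by 0.80, 0.63 and 1.00, the last just at the threshold, and its other probe gave 0.93, 0.33 and 0.92. The ubiquitin shuttle factors held no called gene among 9, where *Ubqln1* was at 0.61, 0.50 and 0.46 and *Ubqln2* at -0.67, -0.69 and -0.24.

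**Figure D3:**
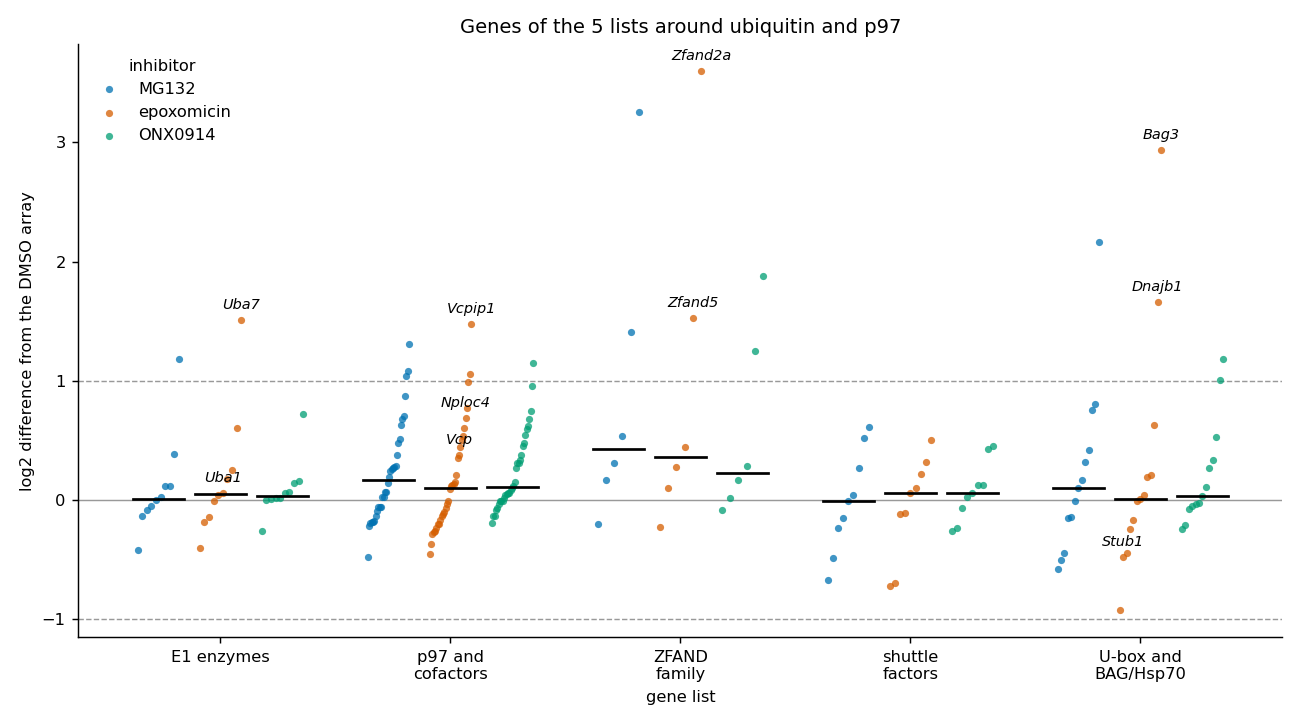
Log2 difference from the DMSO array for each compared gene of the 5 lists (points, sorted within a list; colors, inhibitors; black bars, list medians; dashed lines, 2-fold). Called genes are spread over 4 of the lists, *Zfand2a* and *Bag3* lie highest, and no point reaches the lower dashed line.

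Taking the 5 lists as 1 set of 73 genes, 70 were compared, and 7 reached 2-fold in MG132, 7 in epoxomicin and 5 in ONX0914, all upward. That is 10.0%, 10.0% and 7.14% of the list genes, beside 7.25%, 8.41% and 3.27% of all genes, so the shares with MG132 and epoxomicin are near the background. The 5 genes with ONX0914 included the chosen *Zfand2a* and *Zfand5*, *Dnajb2* at 1.004 and the faint *Ubxn4*. That count was 4 under several alternatives and 3 with normexp without outlier spots. The medians over the 70 genes were 0.11, 0.08 and 0.08. No gene of the lists was at least 2-fold lower with any inhibitor. With all inhibitors 4 genes were higher, namely *Ubxn4*, *Zfand2a*, *Zfand5* and *Bag3*, and 9 were higher with at least 1.

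**Figure D4:**
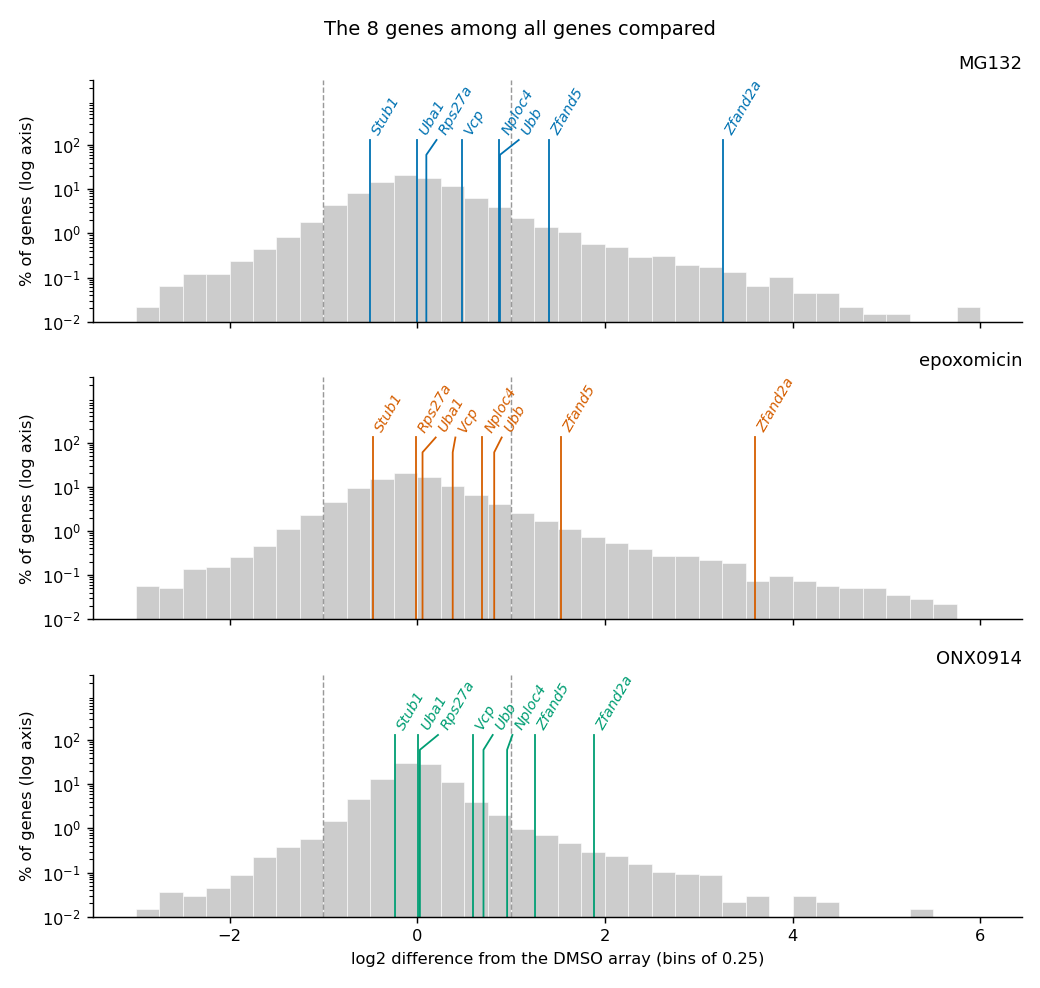
Distribution of the log2 difference from DMSO over all genes compared, for each inhibitor (grey bars, % of genes in bins of 0.25, log axis), with the 8 genes as colored lines and 2-fold as dashed lines. *Zfand2a* lies in the far right tail in each panel, at a smaller difference with ONX0914, and *Stub1* lies left of 0 in each panel.

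The compounds were also set against each other at the same concentration and time. The data hold no measure of proteasome activity in these cultures, so equal inhibition by the compounds is not known. Epoxomicin and MG132 were at least 2-fold apart for none of the 8 genes, beside 1.5% of all genes compared. MG132 and ONX0914 were at least 2-fold apart for 1 of the 8, *Zfand2a*, beside 4.12% of all genes, and epoxomicin and ONX0914 also for *Zfand2a* alone, beside 5.94%. For *Zfand2a*, epoxomicin lay 0.34 above MG132 and 1.72 above ONX0914 on the log2 scale. For the remaining genes, the largest gap between any pair of inhibitors was 0.28. With 1 array each, no interval of these differences between cultures can be given.

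Genes whose differences were most like those of a member were sought among the 12728 genes, by the Euclidean distance over the 3 log2 differences. Nearest to *Zfand2a* were *Abtb2* (distance 0.168), *Gbp3* (0.202) and *Gbp7* (0.255), of which *Gbp3* differed by 3.24, 3.77 and 1.99. Nearest to *Zfand5* were *Icam1* (0.0788), *Tcstv3* (0.127) and *AF067061* (0.132), of which *Icam1*, an adhesion molecule, differed by 1.48 with MG132 and 1.26 with ONX0914. Nearest to *Nploc4* were *Acsbg1* (0.10), *Dnajb2* (0.103) and *N4bp1* (0.135). Each likeness rests on 3 values that share the DMSO array and describes size only.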

How the data were processed

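RNA of J774 cells was hybridized to single-color arrays, 1 per condition, on 1 slide. The authors deposited the intensity of each spot as processed by Feature Extraction 10.7.1.1 (background subtracted within the array, not scaled between arrays), with the software's error and its 0 or 1 calls. They also deposited a GeneSpring table of log2 values, used as an alternative. Its columns followed the scanner values recentred on each probe's median (r of at least 0.99968) with medians between -0.0475 and 0.0180, so scale, centring and direction were settled. Its settings are not given in the sources used here.

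Control and outlier spots were left out, log2 was taken and the 75th percentile of the array was subtracted. Of 39429 probes, 26581 (67.4%) were named through RefSeq accessions. A gene was represented by its probe with the highest mean and entered a comparison if either array had it well above background, with a bound in place of a dim signal. A gene was called at 2-fold. The text names the 8 genes, list genes called with at least 1 inhibitor and the 3 nearest genes of the 3 members with the largest mean difference. *Ufd1*, *Nsfl1c*, *Plaa*, *Ubxn7*, *Derl1*, *Derl2*, *Derl3*, *Syvn1*, *Uba2*, *Ubqln1*, *Ubqln2* and the other *Zfand* genes were named after their values were seen. A list of precursor genes and what rests on it are not reported here. The members and lists were chosen with earlier results of these data known. Alternatives were 2 fits of normexp (offset 50, limma 3.58.1 in R 4.3.3), of which the one without outlier spots was chosen after seeing the data, quantile normalization, a median shift, the percentile over detected probes, no scaling, the authors' table, the mean over probes, measured signals in place of bounds, 2 other filters, and thresholds of 1.5-fold and 4-fold. The alternatives for differences between inhibitors were also chosen after seeing the data. Calculations were tested on simulated data and used Python 3.11.15, numpy 2.4.6 and pandas 2.3.3.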

Additional observations from a re-analysis of the deposited data

How the results depend on the processing

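Of 222 summary values under the alternatives, 193 stayed within 1.5 times the count or within 0.09 on the log2 scale and 29 moved. Of 405 values of single genes, 311 stayed within that limit, 90 moved and 4 that had been called turned their sign. Some of the 311 could not move. These genes were well above background on all arrays, so no bound applied, and the mean over probes changes nothing for a gene with 1 probe. In order of MG132, epoxomicin and ONX0914, a 1.5-fold threshold gave 4, 4 and 5 of the 8 genes higher, 14, 13 and 11 list genes higher, and 1 list gene lower with MG132 and 3 with epoxomicin. A 4-fold threshold gave 1, 1 and 0 of the 8 genes higher and 2, 2 and 0 list genes, and no member was that far apart between ONX0914 and MG132 (0) or epoxomicin (0). Normexp on all spots moved the median of all genes to -0.27, -0.30 and -0.17 and the share of calls that were higher from 66.4%, 65.2% and 69.9% to 15.7%, 15.8% and 6.6%. With it the median of the 8 genes was 0.82, 0.67 and 0.79, 4 of them were higher with MG132 (*Ubb* at 1.05 and *Nploc4* at 1.02 in addition), and 1, 2 and 2 list genes were lower. Among called values it turned *Rhbdd1* with MG132 to -0.35 and *Ubxn4* to -0.79, -0.94 and -0.998. Fitted without outlier spots, normexp turned none of these 4 values and gave 3 list genes higher with ONX0914 and shares of 67.9%, 64.7% and 74.3%. For MG132, the median of the 8 genes was 0.58 after a median shift and 0.49 without scaling, where 4 list genes were higher, the median of all genes was -0.12 and -0.20, and 55.3% and 45.0% of calls were higher. With epoxomicin the median shift took the median of all genes to -0.11. No filter on dim probes gave 1 list gene lower with MG132 and 1 with epoxomicin, a median of all genes of 0.12 with MG132, and 58.4% of calls higher with ONX0914, where the authors' table gave 59.2%.

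*Zfand2a* ranged from 3.07 to 3.37 with MG132, 3.53 to 3.74 with epoxomicin and 1.83 to 1.99 with ONX0914 over 9 alternatives, and *Zfand5* from 1.22 to 1.49, 1.35 to 1.63 and 1.18 to 1.31. The order of the inhibitors was the same in 9 of 9 for *Zfand2a*, *Zfand5* and *Stub1*, 8 for *Vcp* and *Nploc4*, 7 for *Ubb* and *Uba1* and 5 for *Rps27a*. Some of these alternatives could not change the order. Measured signals in place of bounds changed nothing for any of these genes. The mean over probes changed nothing for *Zfand2a*, *Stub1*, *Vcp* and *Nploc4*, which have 1 probe each. For *Stub1*, epoxomicin and MG132 were 0.03 apart, inside the spot limit, so the order of that pair is not resolved. The faint *Zfand5* probe by itself gave another order, with epoxomicin lowest at 1.17. No paired analysis was possible because each condition had 1 array. The number of arrays limits the precision, and culture, array and treatment cannot be told apart.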
